A study of Mus musculus with 13 samples.

Results

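Marker genes of the somatic compartment of the fetal ovary were followed in germ cells sorted from mouse ovaries at E17.5, where their transcripts serve as a gauge of how much somatic RNA a sorted germ cell library holds. The set has 10 genes of the 55335 in the count table, chosen by name for their known expression in pregranulosa and other ovarian somatic cells. The rule takes names and no expression value, but earlier results of these data were known when the genes were chosen. Germ cells carrying the *Pou5f1*-GFP transgene Tg(Pou5f1-EGFP)2Mnn were sorted from the ovary pair of each embryo after the mesonephroi were removed, and 3′ Tag-Seq, which reads 1 tag near the 3′ end of each transcript molecule captured, was performed on 13 female libraries. The constitutive cross between *Nr3c1* KO/+ parents gave 3 WT embryos and 3 KO embryos that carry the deletion of the glucocorticoid receptor (GR) in every cell, ovarian somatic cells included. The conditional cross between *Nr3c1* flox/flox parents gave 3 embryos labelled as flox controls and 4 cKO embryos, in which a CreERT2 driven from the *Pou5f1* locus deletes exon 3 in germ cells only. All dams of the conditional cross received 125 μg/g tamoxifen at E10.5, so that allele, tamoxifen and litter cannot be told apart between the crosses. No dam or litter is given for any embryo, and all 4 groups carry the same GFP transgene.

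In the fetal ovary, germ cells enter meiosis while enclosed in nests by pregranulosa cells, the female supporting lineage. RSPO1 and WNT4 stabilise β-catenin in this lineage and, together with the forkhead factor FOXL2, hold it to the ovarian fate, while follistatin (*Fst*) binds activin and KIT ligand (*Kitl*) signals to the KIT receptor on germ cells. The zinc finger factors GATA4 and WT1 and the orphan nuclear receptor NR5A1 mark the gonadal somatic cells more widely, NR2F2 marks the interstitial or stromal cells, and AMHR2 is the type II receptor for anti-Müllerian hormone. Sorted germ cells are known for meiotic transcripts and for KIT itself.

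NR5A1 and NR2F2 bind DNA as nuclear receptors, so the 250 bases upstream of the RefSeq start site were searched on both strands, in the 6 members that matched the RefSeq promoter table (GRCm38.p6), for the NR5A1 extended half-site CAAGGTCA and for the shorter half-site AGGTCA that it contains. *Amhr2* was the only 1 of the 6 (*Foxl2*, *Nr2f2*, *Wnt4*, *Rspo1*, *Kitl* and *Amhr2*) with either. Its upstream region is shown because it holds the letters searched for, at chr15:102445117-102445366 on the + strand, with the match in capitals.
Amhr2: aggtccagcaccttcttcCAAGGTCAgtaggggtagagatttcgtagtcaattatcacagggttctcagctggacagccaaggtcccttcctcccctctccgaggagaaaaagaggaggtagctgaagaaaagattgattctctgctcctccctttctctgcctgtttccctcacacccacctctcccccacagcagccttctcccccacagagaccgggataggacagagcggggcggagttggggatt
The match starts at position -232 from the start site on the gene's own strand. Among the 250 bases upstream of all 32851 promoters of the table, 438 (1.33%) hold CAAGGTCA and 4607 (14.0%) hold AGGTCA. A match describes letters in this window and not a bound site.

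The libraries hold 2048706 to 3674989 counts on genes, so that a single count is worth 0.270 to 0.484 CPM, a count relative to library size and here scaled by TMM. Because the protocol names no molecular identifiers, a floor of 3 counts, 0.816 to 1.46 CPM, covers counting error only. Counts were made over the whole gene span, introns included, and the strand setting is not stated in the sources used here. Of the 5 members that overlap a second gene (*Foxl2*, *Nr5a1*, *Nr2f2*, *Rspo1* and *Fst*), the overlap covered from 0.369% of the *Foxl2* span to 12.3% of the *Nr2f2* span, and it covered 0% of the last 500 bp of all 10. *Nr3c1*, the gene deleted, had 54 to 216 counts per library in all 4 groups. Its log2 fold change was -0.0025 (SE 0.53) in KO against WT, and counts over a whole gene need not show the loss of 1 exon. In KO ovaries at an earlier stage, however, the paper reported depletion of total *Nr3c1* transcript across cell types by single-cell RNA-seq. It also reported a loss by qRT-PCR, with primers listed for a junction with exon 3, the exon deleted. That loss need not be one of the whole transcript. The counts here do not show the depletion of total transcript, and the reason was not tested.

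All 10 members had counts, and their sum was small in every library. The sum over the members was 131.7, 92.5 and 96.9 CPM in WT, 123.6, 70.1 and 64.8 CPM in KO, 70.6, 140.5 and 116.7 CPM in flox and 86.9, 163.1, 92.9 and 131.3 CPM in cKO libraries, here scaled by the library's total alone. The groups overlapped, with means of 107.1 ± 21.5 in WT, 86.2 ± 32.5 in KO, 109.3 ± 35.5 in flox (SD, n = 3 embryos each) and 118.5 ± 35.6 CPM in cKO (SD, n = 4). Between 5 and 10 members had a count in a library, with a median of 8. KO replicates 2 and 3 and flox replicate 1 had counts for 5 members each, and these are the libraries with the lowest sums. In contrast, 11 genes of fetal oocytes, of which 10 had counts and *Sycp3* had 0 in all libraries, summed to 10030 to 16670 CPM. The members' sum was therefore 0.421 to 1.13% of the oocyte sum, with a median of 0.854%. No library of GFP-negative ovarian cells is analysed here, so this percentage is not a share of cells. Fewer somatic cells and less RNA per cell cannot be told apart. Whether the germ cells themselves express any of the members was not tested, so the sum need not be somatic RNA alone. The paper stained the SYCP3 protein in germ cells of younger fetal ovaries. It also ran qRT-PCR on a panel of meiotic genes in younger ovaries, and its qRT-PCR primers include a pair for *Sycp3*. A count of 0 here thus need not mean that a transcript is absent. The same limit applies to members with few or 0 counts.

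**Figure D1:**
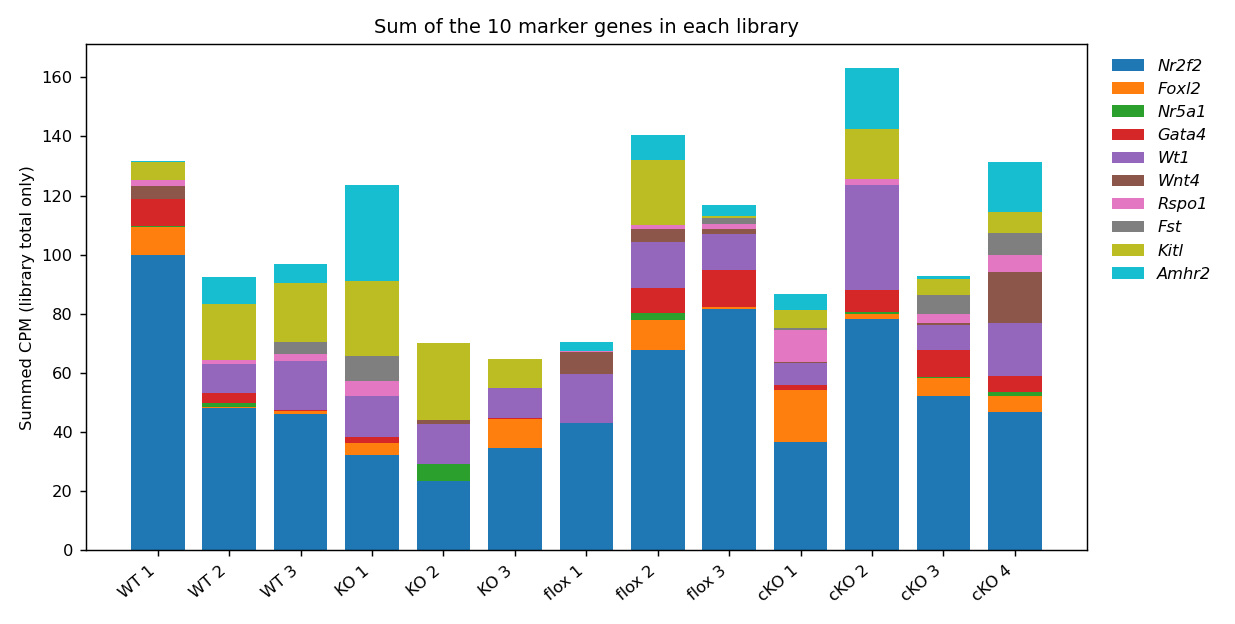
Stacked bars give the CPM of each of the 10 marker genes (y axis, scaled by the library's total alone) in each of the 13 libraries (x axis, group and replicate number). The bars end between 64.8 CPM in KO replicate 3 and 163.1 CPM in cKO replicate 2, and *Nr2f2*, at the bottom, gives 26.2 to 75.9% of each bar.

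*Nr2f2* supplied a median of 48.2% of the summed counts of the members, in tags that are not divided by transcript length. Without it, the sums were 42.4 ± 9.7 CPM in WT, 56.0 ± 31.6 CPM in KO and 45.1 ± 24.3 CPM in flox (SD, n = 3 each) and 65.0 ± 23.0 CPM in cKO libraries (SD, n = 4). KO, the group with the lowest mean over all members, was above WT and flox in this mean, by less than its own SD. The sum per library also rested on different members in different embryos. *Amhr2* gave 83 of the 317 counts in KO replicate 1 and 0 counts in KO replicates 2 and 3, and *Wt1* gave 90 of the 410 counts in cKO replicate 2 and 0 in WT replicate 1.

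Among the 5 transcription factors, *Nr2f2* (ENSMUSG00000030551.14, chromosome 7 of mm10 from 70351944 to 70366735, - strand) was the only one with more than 3 counts in all 13 libraries. Its level was 102, 50.3 and 45.7 CPM in WT, 31.4, 23.7 and 37.6 CPM in KO, 45.0, 64.4 and 80.5 CPM in flox and 36.5, 76.4, 51.1 and 44.6 CPM in cKO germ cells. All KO embryos lay below all WT embryos, while the cKO and flox embryos overlapped. In order of their means, the groups were WT at 66.2 ± 31.5, flox at 63.3 ± 17.8, cKO at 52.2 ± 17.2 (SD, n = 4) and KO at 30.9 ± 6.98 CPM (SD, n = 3 for the others). WT, flox and cKO overlapped with their neighbours in this order, and the highest KO embryo, at 37.6 CPM, was above the lowest cKO embryo, at 36.5 CPM. In KO against WT the log2 fold change was -1.10 (SE 0.50, 95% confidence interval -2.12 to -0.07), with an unadjusted p of 0.0371 by the quasi-likelihood test of edgeR and 0.847 after Benjamini-Hochberg adjustment over 13086 genes. The exact permutation test of these 3 embryos against 3 gave p = 0.1 (two-sided), the smallest p that this design allows. Without WT replicate 1, which had the highest level, the log2 fold change was -0.63 (SE 0.55). For cKO against flox it was -0.28 (SE 0.46, 95% confidence interval -1.22 to 0.66). NR2F2 is also known from venous endothelium, and the summed level of 6 endothelial genes was 13.3 to 30.8 CPM in KO and 39.5 to 47.3 CPM in WT libraries. This difference lay in *Pecam1*, with 39, 77 and 112 counts in WT and 65, 4 and 11 in KO, and in *Cdh5*, with 31, 8 and 16 in WT and 2, 0 and 7 in KO, whereas *Tek* had 11, 13 and 26 in WT and 12, 47 and 1 in KO libraries. *Cdh5* and *Tek* are named here after their values were seen, and the part of endothelial cells in the *Nr2f2* result was not tested.

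*Gata4* (ENSMUSG00000021944.15, chromosome 14, 63198922 to 63271692, - strand), which is needed for the genital ridge to form, was at 9.24, 3.32 and 0.540 CPM in WT and at 1.89, 0 and 0.438 CPM in KO germ cells. It was at 0, 7.94 and 12.1 CPM in flox and at 1.72, 6.98, 9.13 and 5.14 CPM in cKO germ cells. KO had 6 counts in all 3 libraries together and WT had 30, but the groups overlapped, since WT replicate 3 had 2 counts and KO replicate 1 had 5. The log2 fold change was -2.39 (SE 2.00) in KO against WT and -0.21 (SE 1.76) in cKO against flox, and the latter was 0.55 without flox replicate 3 and 0.10 without cKO replicate 1. Here and below, fits with 1 library left out are given where the direction turned, and the last section gives their full ranges.

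*Wt1* (ENSMUSG00000016458.14, chromosome 2, 105126529 to 105173616, + strand), a marker of the coelomic epithelium and of supporting cells, had over 3 counts in 12 libraries and none in WT replicate 1. Its level was 0, 10.4 and 16.2 CPM in WT, 13.6, 13.5 and 10.9 CPM in KO, 17.2, 15.0 and 12.1 CPM in flox and 7.24, 34.9, 8.03 and 17.1 CPM in cKO germ cells. The KO and flox embryos lay close together, and the lowest and the highest of the 13 levels were a WT and a cKO embryo. The log2 fold change was 0.50 (SE 1.18) in KO against WT, and -0.074 without WT replicate 1. It was 0.19 (SE 1.10) in cKO against flox, and -0.44 without cKO replicate 2.

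*Foxl2* (ENSMUSG00000050397.4, chromosome 9, 98955288 to 98958543, + strand), a gene of 1 exon that defines the granulosa lineage, varied from embryo to embryo within each group. It had 22, 1 and 4 counts in WT, 10, 0 and 24 in KO, 0, 22 and 2 in flox and 51, 4, 16 and 15 in cKO libraries, which in cKO corresponds to 17.6, 1.55, 5.84 and 5.14 CPM. Each group thus held an embryo with 4 counts or fewer and another with more than 20, and all groups overlapped. The log2 fold change was 0.35 (SE 1.92) in KO against WT, where it was -0.17 without WT replicate 2, -0.10 without WT replicate 3 and -0.95 without KO replicate 3. The change was 1.07 (SE 1.85) in cKO against flox. *Nr5a1* (ENSMUSG00000026751.14, chromosome 2, 38692656 to 38714542, - strand) had 28 counts in all, of which 12 were in KO replicate 2, and 0 counts in 6 libraries. It did not pass the filter on low counts, and no fold change is given.

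**Figure D2:**
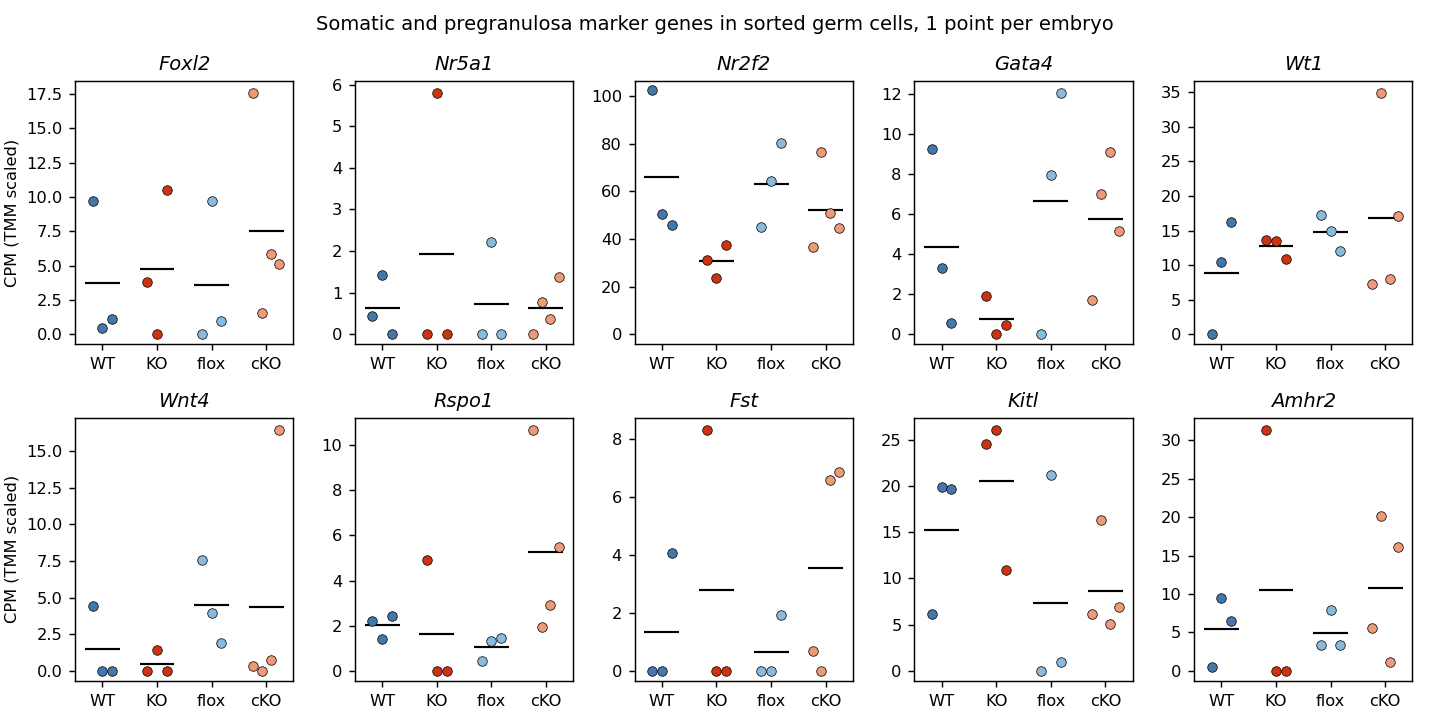
Each panel plots the level of 1 marker gene (y axis, CPM scaled by the library's total and TMM factor, linear and different in each panel) in the 4 groups (x axis), with 1 point per embryo in replicate order from left to right and a line at the group mean. Only for *Nr2f2* do the KO points all lie below the WT points, and only for *Rspo1* do the cKO points all lie above the flox points.

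The 4 ligands were measured with fewer counts than *Nr2f2*. *Rspo1* (ENSMUSG00000028871.7, chromosome 4, 124986430 to 125009099, + strand), which potentiates WNT signals through the LGR receptors, had 5, 3 and 9 counts in WT, 13, 0 and 0 in KO, 1, 3 and 3 in flox and 31, 5, 8 and 16 in cKO libraries. In CPM this was 0.420, 1.32 and 1.45 in flox and 10.7, 1.94, 2.92 and 5.49 in cKO, so that all cKO embryos were above all flox embryos. The difference, at a log2 fold change of 2.26 (SE 2.05, 95% confidence interval -1.97 to 6.48), did not pass the test, with an adjusted p of 1.00 (edgeR), and the exact permutation test gave p = 0.0571 (two-sided), where 4 embryos against 3 can reach 0.0286. No flox library was above the floor of 3 counts. In KO against WT the log2 fold change was -0.28 (SE 2.03), and 0.28 without KO replicate 2 or without KO replicate 3.

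*Wnt4* (ENSMUSG00000036856.4, chromosome 4, 137277489 to 137299726, + strand), the WNT ligand of the supporting lineage, had 10, 0 and 0 counts in WT, 0, 3 and 0 in KO, 18, 9 and 4 in flox and 1, 0, 2 and 48 in cKO libraries. It was above the floor in all flox libraries and in 1 library each of WT and cKO. The 48 counts of cKO replicate 4 (16.5 CPM) set the cKO mean of 4.38 ± 8.06 CPM (SD, n = 4). The log2 fold change was -1.53 (SE 2.39) in KO against WT, and 3.41 without WT replicate 1. In cKO against flox it was -0.03 (SE 2.14), and 0.34 to 0.56 without flox replicate 1 or cKO replicates 1, 2 or 3. Leaving out 1 other library moved it further, downward, as the range in the last section shows.

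*Fst* (ENSMUSG00000021765.9, chromosome 13, 114452290 to 114458951, - strand), the activin antagonist, was uneven among embryos, with 0, 0 and 15 counts in WT, 22, 0 and 0 in KO, 0, 0 and 4 in flox and 2, 0, 18 and 20 in cKO libraries. In 7 of the 13 libraries it had 0 counts. Its log2 fold change of 0.98 (SE 2.44) in KO against WT rested on KO replicate 1, and was -4.87 without it. The groups overlapped in cKO against flox, at 2.39 (SE 2.48).

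*Kitl* (ENSMUSG00000019966.18, chromosome 10, 100015630 to 100100416, + strand), the ligand through which somatic cells support germ cells, was at 6.16, 19.9 and 19.7 CPM in WT and 24.6, 26.1 and 10.9 CPM in KO germ cells. In the conditional cross it was at 0, 21.2 and 0.964 CPM in flox and 6.20, 16.3, 5.11 and 6.86 CPM in cKO germ cells. The 3 cKO embryos other than replicate 2 lay within 5.11 to 6.86 CPM, between flox embryos at 0 and 21.2 CPM. The log2 fold change was 0.42 (SE 1.28) in KO against WT. It was 0.22 (SE 1.22) in cKO against flox, and -0.36 without flox replicate 1, -0.28 without flox replicate 3 and -0.28 without cKO replicate 2. Omission of 1 other library moved it further, upward, as the range in the last section shows.

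The receptor gene *Amhr2* (ENSMUSG00000023047.11, chromosome 15, 102445367 to 102454633, + strand), whose upstream sequence is printed above, was at 0.440, 9.49 and 6.49 CPM in WT, 31.4, 0 and 0 CPM in KO, 3.36, 7.94 and 3.37 CPM in flox and 5.51, 20.2, 1.10 and 16.1 CPM in cKO germ cells. KO held both the highest level and the 2 libraries without counts. The log2 fold change of 0.93 (SE 1.72) in KO against WT came from KO replicate 1, and was -6.80 (SE 2.70) without it, against 2 KO libraries at 0 counts. It was 1.12 (SE 1.65) in cKO against flox. *Amhr2* also had the highest ratio of within-group variance to mean count among the members, at 32.4, where genes of a similar mean had a median of 19.3. For *Nr2f2* this ratio was 18.8 beside a median of 24.4, and for *Rspo1* it was 6.45 beside 15.2.

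Comparison of KO with WT asked whether loss of GR in all cells goes with a different level of these marker transcripts. Comparison of cKO with flox asked the same for loss in germ cells only. Of the 9 members tested, 0 were called in KO against WT at an adjusted p of 0.05 or less, where 0% of all 13086 genes were called. With DESeq2, 0 of the 9 members and 10 of all genes were called, and with limma's voom 0 and 0. At an unadjusted p under 0.05 there was 1 member, *Nr2f2*, which was lower, beside 5.82% of all genes. *Nr2f2* was also the only 1 of the 9 whose KO and WT embryos did not overlap, beside 9.47% of all genes in either direction. The median log2 fold change was 0.35 over the 9 members and -0.03 over all genes, with 5 members above 0 and 4 below. The members' median was -0.31 with limma voom. It was -1.11 without KO replicate 1, -0.17 without WT replicate 2 and -0.10 without WT replicate 3, and above 0 in all other settings. The median SE of the members was 1.92 on the log2 scale, so that for most members only large changes were detectable with these counts.

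In cKO against flox, 0 of the 9 members were called, where 0% of all genes were called with edgeR. DESeq2 called 0 members and 5 genes, and voom called 0 and 0. At an unadjusted p under 0.05 there were 0 members, beside 3.19% of all genes. The 1 member without overlap, *Rspo1*, stands beside 4.94% of all genes. The median log2 fold change was 0.22 over the members and -0.01 over all genes, with 6 members above 0 and 3 below. The members' median was -0.15 with the replicate block and above 0 in all other settings, up to 1.67 without flox replicate 2. Effects in the 2 models did not differ by the test for any member, with 0 called beside 0% of all genes. For *Nr2f2* the effect in cKO minus the effect in KO was 0.82 (SE 0.67, 95% confidence interval -0.57 to 2.21), and the models were not shown to differ.

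**Figure D3:**
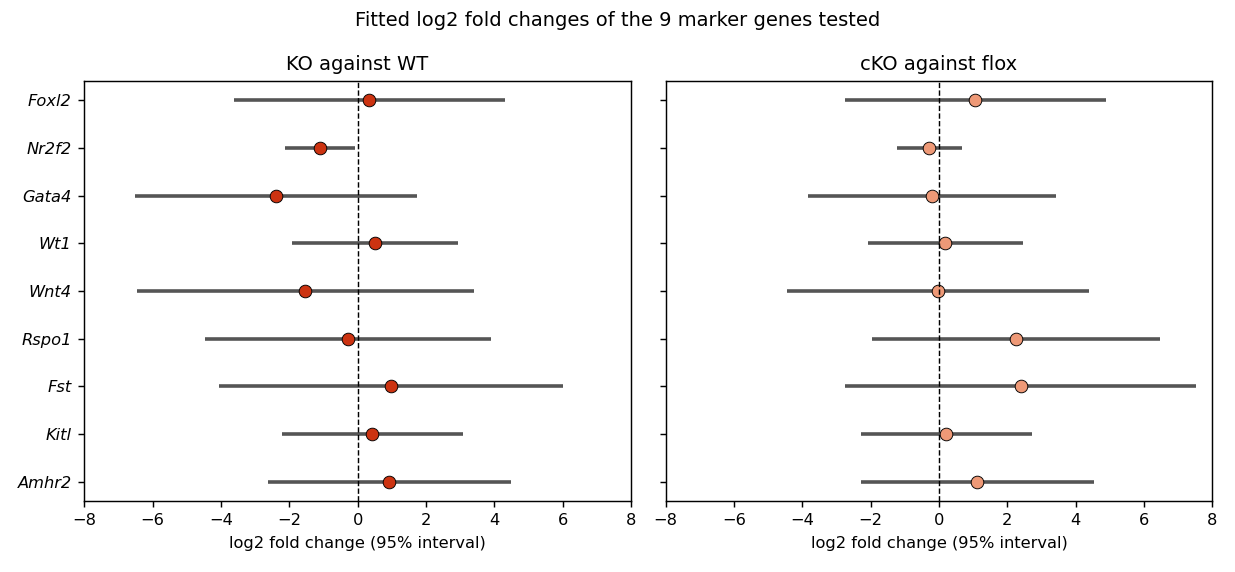
Points give the fitted log2 fold change (x axis) of each of the 9 marker genes tested (y axis) in KO against WT (left) and in cKO against flox (right), and lines give the 95% confidence interval. All intervals include 0 except that of *Nr2f2* in KO against WT, which ends at -0.07, and the intervals of the ligands, *Foxl2*, *Gata4* and *Amhr2* are wider than those of *Nr2f2*.

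Across the crosses, flox and cKO were compared with WT and KO. None of the 9 members was called with edgeR, DESeq2 or voom, where 0.00764% of all genes were called with edgeR, which is 1 gene, *Ubb* (named here after its value was seen). At an unadjusted p under 0.05 there were 0 members beside 5.59% of all genes, and 1 member, *Kitl*, with voom. *Wnt4* had 13 counts in the 6 libraries of the constitutive cross and 82 in the 7 of the conditional cross, at a log2 fold change of 2.34 (SE 1.69), and 48 of the 82 were in 1 library. *Gata4* had 36 and 106 counts, at a log2 fold change of 1.70 (SE 1.34). *Kitl* lay the other way, with 273 and 144 counts and a log2 fold change of -1.15 (SE 0.89). *Nr2f2* was at 48.5 ± 28.1 CPM (SD, n = 6) in the constitutive and 56.9 ± 17.0 CPM (SD, n = 7) in the conditional cross, at a log2 fold change of 0.35 (SE 0.34).

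Markers of other cells that a germ cell gate could hold were summed in the same libraries. Of 10 stromal and mesothelial genes, 9 had counts (*Tcf21* had 0), and the sum was 84.8 to 133.6 CPM in WT, 57.7 to 111.4 in KO, 96.9 to 286.2 in flox and 96.7 to 362.9 in cKO libraries. It thus reached higher values in the conditional cross, where the members' sum of 70.6 to 163.1 CPM overlapped more fully with the 64.8 to 131.7 CPM of the constitutive cross. *Col1a1*, the collagen with the highest level of this list, had a log2 fold change of 1.99 (SE 0.41) between the crosses, which did not pass the test after adjustment (adjusted p = 0.207, edgeR). Counts were present for all 6 endothelial genes, which summed to 38.7 to 82.6 CPM in flox and 51.1 to 104.2 CPM in cKO libraries. *Pecam1* had 1260 counts over all libraries and *Tek*, the next of the list, had 311, so the endothelial sums rest mainly on 1 gene. Whether the germ cells themselves express *Pecam1* was not tested. In KO against WT, *Pecam1*, an adhesion molecule listed here as endothelial, had a log2 fold change of -1.41 (SE 0.71). The other 2 endothelial genes tested, *Tek* and *Eng*, were at 0.61 (SE 1.47) and 0.24 (SE 2.58), and 0 of the 3 were called. cKO replicate 2, with the highest sum of the members, also had the highest endothelial sum, and KO replicate 3 had the lowest of both.

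Macrophage and leukocyte genes, all 7 with counts, summed to 0.454 to 2.45 CPM in WT and 7.25 to 19.2 CPM in KO libraries, and to 0 to 9.28 CPM in flox and 24.6 to 29.4 CPM in cKO libraries. The genes behind these sums differed between the models. In KO libraries they were *C1qb* (17, 22 and 1 counts), *Adgre1* (10, 18 and 0) and *C1qa* (0, 0 and 17), named here after their values were seen, and *C1qa* and *C1qb* had 0 counts in all libraries of the conditional cross. Only *Lyz2*, the lysozyme of macrophages, passed the filter. It had 0 counts in all WT and KO libraries, 0, 8 and 16 in flox and 84, 39, 65 and 79 in cKO libraries. The whole list had 85, 69, 66 and 79 counts in these cKO libraries, so the cKO sums rest mainly on *Lyz2*. *Cd68* and *Csf1r*, named here after their values were seen, had 14 and 16 counts in cKO replicate 2 and 0 in the other cKO libraries. The log2 fold change of *Lyz2*, at 2.65 (SE 1.55) in cKO against flox, did not pass the test. Erythroid genes, 5 of 7 with counts (*Hbb-y* and *Alas2* had 0), summed to 1263 CPM in flox replicate 1 and to 0 to 396.6 CPM in the other libraries. *Hbb-bs* and *Hba-a1*, adult globin genes, had log2 fold changes of -1.97 (SE 0.72) and -2.41 (SE 0.81) in cKO against flox, at adjusted p of 1.00 (edgeR). The part of these cells in the members' levels was not tested.

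**Figure D4:**
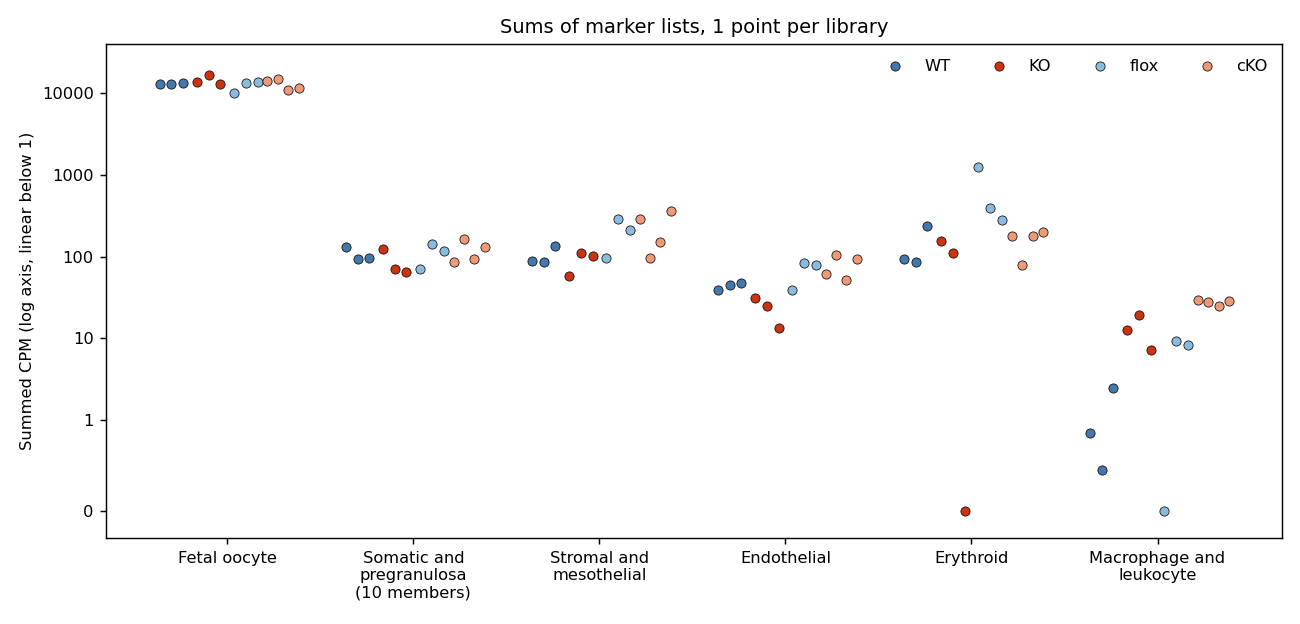
Points give the summed CPM of 6 marker lists (y axis, logarithmic above 1 and linear below, scaled by the library's total alone) in each library, grouped by list (x axis) and coloured by group. The oocyte sums lie between 10030 and 16670 CPM, while the 10 members lie between 64.8 and 163.1 CPM and overlap in all 4 groups.

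Of the 9 other genes of the supporting lineage, all had counts and 8 were tested. Their sum was 33.0 to 59.0 CPM in WT and 7.65 to 31.6 CPM in KO libraries, and 46.8 to 71.0 CPM in flox and 21.9 to 45.5 CPM in cKO libraries. *Bmp2* alone gave 51 of the 152 counts behind the sum of WT replicate 3 and 45 of the 107 behind that of flox replicate 3, so the sums rest in part on 1 gene. Of the 8 tested, 0 were called in either comparison, and 7 were below 0 in KO against WT and 4 in cKO against flox. *Bmp2*, a growth factor of pregranulosa cells, had an unadjusted p under 0.05 in both, with 0, 3 and 51 counts in WT, 0 in all KO, 59, 0 and 45 in flox and 0, 2, 0 and 0 in cKO libraries. Most of its counts were thus in 3 control embryos, and 2 other control embryos had none. *Irx3*, a homeobox gene of the same lineage and the highest of the list, was at 14.4 ± 19.4 CPM in WT, 5.36 ± 1.06 CPM in KO and 19.5 ± 4.49 CPM in flox (SD, n = 3 each) and 4.73 ± 3.80 CPM in cKO germ cells (SD, n = 4), and was not called in either comparison. The sums of this list were not tested. Of 7 testis supporting and steroidogenic genes, 4 had counts (*Amh*, *Cyp11a1* and *Insl3* had 0), and *Hsd3b1*, a steroidogenic enzyme, was at 23.4 ± 14.7 CPM in WT and at 3.08 ± 4.92 CPM in KO (SD over 3 embryos each), at a log2 fold change of -2.91 (95% confidence interval -6.21 to 0.39) that did not pass the test. *Star*, which carries cholesterol into mitochondria and is the other gene of this list that was tested, lay the other way, at 7.86 ± 5.80 CPM in WT and 17.6 ± 7.16 CPM in KO (SD over 3 embryos each), at a log2 fold change of 1.15 (SE 1.67).

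The partners through which the ligands and the receptor act were read from pathway lists. Of 28 WNT and R-spondin pathway genes, 27 were in the count table and 21 were tested. In KO against WT and cKO against flox 0 were called, with 0 at an unadjusted p under 0.05 in either. Their median log2 fold change was -0.04 in KO and 0.31 in cKO. *Gsk3b*, the kinase that marks β-catenin for degradation, was at 309 ± 139 CPM in WT and 259 ± 48.6 CPM in KO germ cells (SD, n = 3 each). *Ctnnb1*, the gene of β-catenin, named here after its values were seen, was tested on 87 counts in all, with 0 in 7 libraries. Whether the counts miss its transcripts was not tested. All 10 KIT pathway genes were tested and 0 were called, with medians of -0.20 in KO and 0.14 in cKO. *Kit*, the receptor for KIT ligand and named here after its values were seen, was at 341 ± 189 CPM in WT, 252 ± 30.8 CPM in KO and 295 ± 66.5 CPM in flox (SD, n = 3 each) and 356 ± 77.8 CPM in cKO germ cells (SD, n = 4). *Foxo3*, a factor that KIT signals restrain, had log2 fold changes of 0.19 (SE 0.29) in KO and 0.21 (SE 0.27) in cKO. Of 17 genes of activin, follistatin and AMH signaling, 14 had counts (*Inhba*, *Fstl3* and *Amh* had 0), 13 were tested and 0 were called, with medians of -0.03 in KO and -0.01 in cKO. *Smad4*, the mediator shared by these signals, had log2 fold changes of -0.03 (SE 0.34) and -0.32 (SE 0.32). Among the oocyte genes, 10 were tested and 0 were called in either comparison. *Sycp1*, of the synaptonemal complex, was at 5499 ± 638 CPM in WT and 5677 ± 668 CPM in KO germ cells (SD, n = 3 each), and its SE of 0.26 in KO against WT compares with 1.92 as the median of the members.

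A further question was whether the members varied together among embryos. Of the 36 pairs of the 9 members tested, 24 had a positive Pearson correlation of log2 CPM over the 13 embryos and 12 a negative one, with a median r of 0.11 and a range from -0.50 to 0.77. The highest was between *Nr2f2* and *Gata4*, at r = 0.77 (permutation test, two-sided, p = 0.00197, adjusted p = 0.0709 over 36 pairs) and Spearman's rho = 0.79 (permutation p = 0.00187, adjusted p = 0.0673). It was 0.68 without the 2 embryos farthest from the median of *Nr2f2*, 0.86 within the constitutive cross (n = 6) and 0.66 within the conditional cross (n = 7). *Rspo1* and *Amhr2* followed at r = 0.60 (permutation p = 0.0303, adjusted p = 0.424), with 0.82 within the constitutive and 0.18 within the conditional cross, and *Rspo1* and *Fst* at r = 0.59 (permutation p = 0.0354, adjusted p = 0.424). No pair passed the adjustment, and the most negative pair was *Wnt4* and *Kitl*, at r = -0.50. Levels in 1 embryo share its library and depth, and most members had few counts, so that these correlations are given as a description.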

How the data were processed

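Counts per gene were taken from the deposited count table, which holds raw read counts with 1 column per embryo. Per the study's methods and the submitters' processing notes, the authors trimmed adapters with cutadapt, aligned reads to mm10 with STAR 2.6.0 and counted them with featureCounts 1.6.3. The length given for each of the 55335 genes equals its span, so introns were counted, and the annotation and strand setting are not given in the sources used here. Symbols and intervals are from GENCODE M21 (54587 genes matched, 748 did not). Tables of the authors' own comparisons hold fold changes, p-values and log-odds and were not used.

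Depth was 2048706 to 3674989 counts per library. The edgeR function filterByExpr, at a minimum count of 10 and a minimum total of 15, left 13086 genes and 9 of the 10 members. Libraries were scaled by TMM and tested with edgeR 4.0.16 in R 4.3.3 by the quasi-likelihood F test, with 1 mean for each of 4 groups over all 13 libraries without covariates. Benjamini-Hochberg adjustment of p-values ran over all genes tested, with calls at 0.05 or less. Log2 CPM used a prior count of 2. Single members were also tested by exact permutation of embryos, two-sided, and pairs of members with 100000 resamples (scipy 1.17.1). Sums of lists use CPM scaled by the library total alone and carry no test. The fit was tested on simulated data.

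Alternatives were RLE and upper-quartile scaling, no filter beyond 1 count, DESeq2 1.42.0, limma 3.58.1 voom, a fit of just the 2 groups in question, a block for the replicate number, and the omission of single libraries. The members and gene lists were chosen with earlier results of these data known. Named beside the members were *Nr3c1* and, of each other list, the gene with the highest mean CPM and up to 2 genes with the lowest p among those with an unadjusted p under 0.05 in either comparison. Embryos were labelled as biological replicates, with no litter given. Male libraries were not analysed here.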

Additional observations from a re-analysis of the deposited data

Results flagged for a closer look

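The level of each member, and of the members' sum, was checked for a single embryo far from the rest of its group. This needs at least 4 embryos, which only cKO has, and 11 sets of values were compared. For normally distributed values, about 1 in 20 sets is flagged by chance. The levels here are sparse and uneven, and the members' sum is not independent of the members, so that rate need not hold. Of the 11, 2 stood apart. *Wnt4* was at 16.5 CPM in cKO replicate 4, while the other cKO embryos were at 0 to 0.730 CPM, and the gap to the nearest of them was 0.956 of the group's range, above the critical value of 0.829. *Kitl* was at 16.3 CPM in cKO replicate 2, while the others were at 5.11 to 6.86 CPM, with a gap of 0.844 of the range. The embryos differ, and cKO replicate 4 had the highest stromal and mesothelial sum of all libraries (362.9 CPM). The highest endothelial sum was that of cKO replicate 2 (104.2 CPM), where *Pecam1* gave 208 of the 262 counts. The part of these cells in the flagged levels was not tested.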

How the results depend on the processing

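No member was called under any of the settings run, in 82 fits of a comparison, with a lowest adjusted p of 0.645 (*Nr2f2* in KO against WT, DESeq2). The replicate block, with the replicate number as a term, also called 0 members in all 4 comparisons. Deviations of embryos with the same number had correlations of -0.023 to 0.064 over 6 pairs of libraries, and the main fit held no such term. With no litter given, these values cannot tell whether such embryos shared a litter or a preparation. Counts of all genes called did move. In KO against WT, cKO against flox, their difference and the comparison of crosses, edgeR called 0, 0, 0 and 1 genes, DESeq2 10, 5, 4 and 33, and edgeR with no filter on low counts 15, 11, 8 and 35. Without WT replicate 3, 2 genes were called in KO against WT and 10 between the crosses, and without KO replicate 3 there were 4 between the crosses. The unadjusted p of *Nr2f2* in KO against WT was no longer under 0.05 with limma voom, with no filter, with only the 2 groups compared, with the replicate block, and without WT replicate 1, KO replicate 1 or KO replicate 2.

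Of 23 log2 fold changes shown, 12 kept their direction throughout, *Nr2f2* in all 4 comparisons among them, at -1.30 to -0.63 in KO against WT with 1 library left out. Direction turned with limma voom for *Amhr2* in KO against WT (-1.55), *Gata4* in cKO against flox (0.90) and *Wt1* in cKO against flox (-0.14). It turned with the replicate block for *Foxl2* (-0.15) and *Wt1* (-0.15) in cKO against flox, and with no filter for *Wnt4* in cKO against flox (0.0024). With 1 library left out, log2 fold changes in KO against WT ranged from -6.80 to 1.57 for *Amhr2*, -0.95 to 2.52 for *Foxl2*, -4.87 to 5.80 for *Fst*, -5.39 to 0.28 for *Rspo1*, -4.95 to 3.41 for *Wnt4* and -0.074 to 1.30 for *Wt1*. In cKO against flox they ranged from -0.79 to 0.55 for *Gata4*, -0.36 to 4.07 for *Kitl*, -3.47 to 0.56 for *Wnt4* and -0.44 to 0.46 for *Wt1*. Leaving *Nr2f2* out took the members' sum to 42.4 CPM in WT, 45.1 CPM in flox and 65.0 CPM in cKO libraries. Apart from *Nr2f2*, no member had more than 90 counts in a library, and the causes of these shifts were not tested.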
